A study of Canis lupus familiaris with 25 samples.

Results

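The 100 genes described here were those whose transcript level followed MKI67 most closely among canine prostate carcinomas. MKI67 encodes Ki-67, a nuclear protein of cycling cells that coats the mitotic chromosomes and is lost from resting cells, and staining for it is widely used in pathology to estimate how many cells of a tumour are dividing. In many tumours its transcript rises and falls with those of the replication and mitosis machinery, such as PCNA, the sliding clamp that holds DNA polymerase on its template. The genes were chosen by their Pearson correlation (r) of log2(CPM+1) with MKI67 over the 9 malignant tissues, and the 100 with the highest r were taken of 10946 eligible genes and of 32220 Ensembl IDs in all. CPM is the count of a gene scaled to the total gene counts of its sample (counts per 1000000) after leaving out KLK2, the secreted kallikrein that took between 15.7% and 48.2% of the gene counts of each non-malignant tissue. Eligible genes had a median of at least 5 CPM in malignant tissue and at least 0.5 CPM in at least 1 non-malignant tissue, and the cancer and globin genes named by the study, MKI67 and PCNA among them, were left out.

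RNA-Seq read counts were available for 25 samples of male dogs. Prostate carcinoma was the diagnosis of the 9 tissues PT-1 to PT-9 and of US-3 and US-4, both aspirated with a fine needle under ultrasound guidance (US-FNA), whereas the 9 tissues PT-10 to PT-18 and the 5 aspirates US-40, US-32, US-15, US-13 and US-7 were non-malignant. Tissues were collected after death and diagnosed by histopathology, whereas aspirates were, by the labels, taken from living dogs and diagnosed by cytology. Of the dogs with malignant tissue, 3 were intact (PT-1, PT-4 and PT-8) and 6 neutered, the dogs of US-3 and US-4 were neutered, and every dog with a non-malignant sample was intact, so that diagnosis and neutering cannot be told apart in the aspirates. Ages ranged from 8 to 12 years in malignant tissue, from 1 to 16 years in non-malignant tissue, from 4 to 10 years in non-malignant US-FNA and were 9 and 10 years in malignant US-FNA. The study marks the dog of US-3 as aspirated again right after euthanasia, without saying which aspirate US-3 was, and as a source of tissue that it does not name, and the labels describe US-3 and PT-6 alike, as a neutered dog of mixed breed aged 10 years. Whether both came from the same animal was not tested, and results without PT-6 or without US-3 are given where they bear on this.

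Reads counted on genes ranged from 3355926 to 6594032 per sample, and MKI67 itself rested on 91 to 2888 counts in malignant tissue but on at most 16 counts in each of the 14 non-malignant samples. The deposited tables do not pair IDs with gene names, and the available gene table matched none of the IDs. Therefore, the 100 genes are described by their place in the order of r, from 1 for the highest, and by their levels, and lists of cell cycle genes or of markers of other cell types could not be applied. In bulk RNA such as this, more cells of a type and more RNA per cell cannot be told apart.

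MKI67 spanned a wide range among the malignant tissues. It was lowest in PT-3 (17.1 CPM), followed by PT-9 (25.6 CPM), PT-8 (28.9 CPM) and PT-4 (47.5 CPM), and then by PT-5 (102 CPM), PT-7 (132 CPM), PT-6 (169 CPM), PT-2 (210 CPM) and PT-1 (519 CPM). PT-1 stood apart from the other 8 malignant tissues in CPM, but less so on the log2(CPM+1) scale of the ranking, where it had 9.02, PT-2 had 7.72 and PT-3 had 4.18. In non-malignant tissue MKI67 reached at most 4.68 CPM (median 2.54 CPM), and no read was counted in PT-10 and PT-11, where 3 counts would have amounted to 0.786 CPM and 0.849 CPM. The malignant aspirates had 47.6 CPM (US-4) and 61.3 CPM (US-3), within the range of the malignant tissues and above each non-malignant aspirate (0.737 to 5.26 CPM). This difference in MKI67 between malignant and non-malignant US-FNA amounted to 4.40 on the log2 scale (standard error, SE, 0.53; edgeR quasi-likelihood test, adjusted p = 0.000943).

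**Figure D1:**
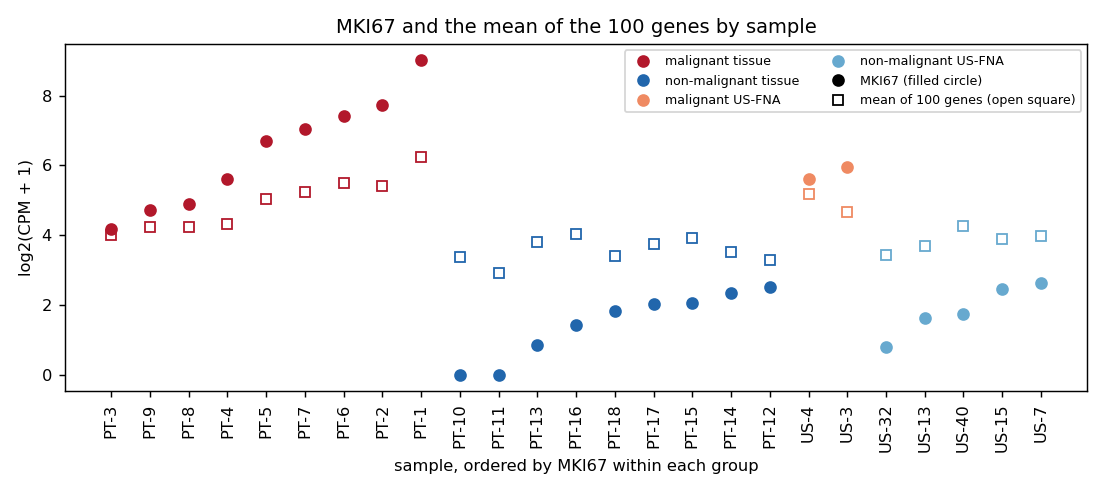
MKI67 (filled circles) and the mean of the 100 genes (open squares) as log2(CPM+1) in each of the 25 samples, ordered by MKI67 within each of the 4 groups. Among malignant tissues the mean of the 100 genes runs from 4.00 in PT-3 to 6.25 in PT-1, and in non-malignant tissue from 2.91 to 4.02.

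The choice of the genes fixes that they follow MKI67 in malignant tissue, and the values there are given as a description. Their r ran from 0.980 at place 1 to 0.878 at place 100, with a median of 0.902, against a median of 0.191 over the eligible genes. At the limit of the list, places 98 to 100 had r of 0.8797, 0.8797 and 0.8783, and places 101 to 103 had 0.8775, 0.8773 and 0.8769, so that the list ends within a continuous series. All 100 genes rose less steeply than MKI67 itself. Their slopes, the log2 change of a gene per log2 change of MKI67, ranged from 0.16 to 0.87 with a median of 0.45, and 38 genes had a slope of 0.5 or more.

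The gene at place 1 was a gene of low level. It had 3.20, 4.27, 2.57 and 5.20 CPM in PT-3, PT-9, PT-8 and PT-4, the malignant tissues with the least MKI67, and between 11.8 and 41.9 CPM in the other 5, with PT-1 the highest. It was almost silent in non-malignant tissue, at 0 in 5 of the samples and at most 1.45 CPM in the others. The gene at place 2 was present everywhere, with 37.4 to 385 CPM in malignant tissue and 7.07 to 38.5 CPM in non-malignant tissue. The gene with the steepest slope, at place 24, ran from 1.88 to 111 CPM in malignant tissue and did not exceed 0.878 CPM in non-malignant tissue, whereas the one with the flattest slope, at place 59, ran from 36.2 to 64.6 CPM and from 29.7 to 49.2 CPM, with overlap between these groups.

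Most of the 100 genes shared the highest tumour but not the lowest. PT-1 was the highest tumour for 86 of them, PT-6 for 10, and PT-2 and PT-7 for 2 each. The lowest tumour was PT-3 for 39 genes, PT-8 for 22, PT-4 and PT-9 for 19 each and PT-5 for 1. The median r between pairs of the 100 genes was 0.843 in malignant tissue, against 0.056 between pairs of eligible genes. In the non-malignant tissues, which did not enter the ranking, the corresponding medians were 0.343 and 0.178.

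Membership depended on single tumours. When the ranking was repeated without 1 malignant tissue, between 51 and 81 of the 100 genes were chosen again for 8 of the tissues left out, but 25 without PT-8. Without PT-8 the 100th gene had an r of 0.931, whereas the original genes still had a median r of 0.912. In none of the 9 repeats did any of the 100 genes fall below an r of 0.801, the lowest value being reached without PT-1. In total, 16 genes were chosen again in all 9 repeats.

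Genes that the study names were compared in the same way. PCNA had an r of 0.704 with MKI67 among the malignant tissues, and 1154 eligible genes had a higher one. It was high in PT-1 (184 CPM) and PT-2 (169 CPM) but also at 92.3 CPM in PT-9, where MKI67 was low, and lowest in PT-5 (51.1 CPM). PMEPA1, a membrane protein that dampens TGF-beta signalling, had an r of 0.770. CTNNB1, encoding beta-catenin of cell adhesion and Wnt signalling, had -0.139, and the transcription factor MYC had 0.450. Of the secretory genes, KLK2 and ACPP (prostatic acid phosphatase) had -0.577 and -0.377, and the kallikrein KLK4 had 0.136.

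Technical values of the malignant tissues were set beside MKI67. Over the 9 tissues, 6 values (gene counts, genes detected, reads outside genes and ambiguous reads per gene count, the KLK2 share and age) were correlated with log2(CPM+1) of MKI67. The largest Pearson r in size was that of the number of reads outside genes per gene count, with r = -0.510 (two-sided exact permutation p = 0.159, Benjamini-Hochberg adjusted p = 0.530 over the 6) and Spearman's rho = -0.517 (exact permutation p = 0.162). Without the 2 tissues farthest from its median, r was -0.076. The largest rho in size was that of the KLK2 share, at -0.600 (exact permutation p = 0.0968), with r = -0.391 (exact permutation p = 0.265, adjusted p = 0.530) and r = -0.459 without the 2 farthest tissues. Genes detected had an r of 0.289 (exact permutation p = 0.450, adjusted p = 0.540), a rho of 0.250 (exact permutation p = 0.521) and an r of 0.741 without the 2 farthest tissues. Age had an r of 0.071 (exact permutation p = 0.853, adjusted p = 0.853), a rho of 0.111 (exact permutation p = 0.777) and an r of 0.454 without the 2 farthest tissues. Their part in the ranking was not tested.

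**Figure D2:**
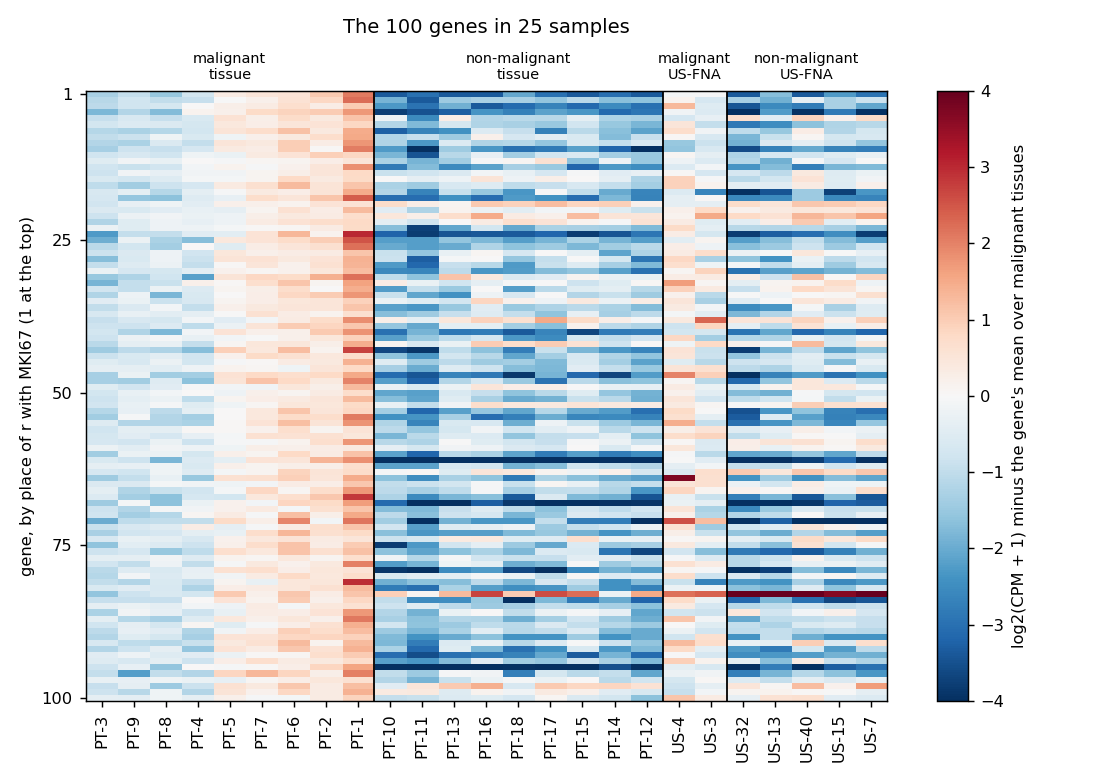
The 100 genes (rows, by place of r from the top) in the 25 samples (columns, ordered by MKI67 within each group), coloured by log2(CPM+1) minus the gene's mean over the malignant tissues. PT-1 is the highest malignant tissue for 86 genes, most rows are lower in both non-malignant groups, and the row at place 83 is higher in every non-malignant aspirate than in any other sample.

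Levels in the non-malignant prostate divided the 100 genes into classes. In non-malignant tissue 67 genes had a median of 5 CPM or more, 23 had 1 to less than 5 CPM and 10 had less than 1 CPM. Thus, most of the genes were also transcribed where MKI67 was close to 0. Compared with non-malignant tissue, 79 genes were higher and 3 lower in malignant tissue (edgeR quasi-likelihood test, adjusted p under 0.05), where 32.8% and 24.9% of all genes tested were called in these directions. Since eligibility required a level in malignant tissue, these counts are a description. The median log2 fold change of the 100 genes was 1.37, against 0.17 over all genes tested. With the 3 intact dogs alone as the malignant group, 63 genes were higher and 2 lower (22.4% and 13.8% of all genes), with a median of 1.44.

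The mean log2(CPM+1) of the 100 genes did not separate the groups completely. It was 4.00 in PT-3, 4.24 in PT-8, 4.25 in PT-9 and 4.32 in PT-4, while the highest non-malignant tissue (PT-16) reached 4.02 and the highest non-malignant aspirate (US-40) 4.28. PT-4 and the other 5 malignant tissues, the latter from 5.04 to 6.25, lay above every non-malignant sample. The malignant tissues of intact and neutered dogs overlapped in MKI67, which ran from 28.9 to 519 CPM in the 3 intact and from 17.1 to 210 CPM in the 6 neutered dogs. As a description, since the genes were chosen on these tissues, in edgeR 0 of the 100 genes and 0% of all genes were called in either direction between them. At an unadjusted p under 0.05, 0 of the 100 genes and 809 of all genes differed, and DESeq2 also called 0 of the 100.

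The malignant aspirates provided samples that had not entered the ranking. Malignant US-FNA was compared with non-malignant US-FNA to see whether genes that follow MKI67 between tumours were also higher in malignant aspirates. Of the 100 genes, 36 were higher and 2 lower (edgeR quasi-likelihood test, adjusted p under 0.05), where 16.5% and 12% of all genes tested were called higher and lower, and 19.5% and 10.3% of the eligible genes. The median log2 fold change of the 100 genes was 1.10 (quartiles 0.52 and 2.19), against 0.13 over all genes tested and 0.22 over the eligible genes, and 87 of the 100 had a positive value.

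The comparison was repeated with samples left out. Without US-3 or US-4 the malignant group was 1 aspirate with no spread of its own, so only the effect size is given. The median log2 fold change of the 100 genes was 0.72 without US-4 and 1.35 without US-3. When the 100 genes were chosen again without 1 malignant tissue, the list chosen without PT-8 had 17 genes higher and 2 lower with a median of 0.44, a share close to that of the eligible genes. The list without PT-1 had 52 higher and 5 lower, and the list without PT-6, the tissue that matches US-3 in its labels, had 33 higher and 3 lower. Of the 25 genes kept without PT-8, 7 were higher, and of the 75 genes that took the place of the others, 10 were.

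**Figure D3:**
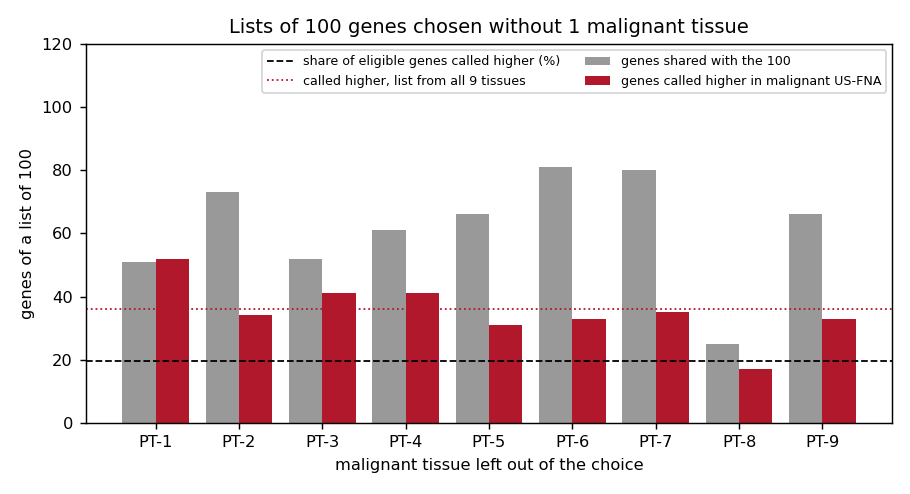
Lists of 100 genes chosen without the malignant tissue on the horizontal axis: genes shared with the original 100 (grey bars) and genes called higher in malignant than in non-malignant US-FNA (red bars), with the count of the original list (36, dotted) and the share of the eligible genes (19.5%, dashed). The list chosen without PT-8 shares 25 genes and has 17 called, the lowest of the 9 lists in both.

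The genes were then divided by their values in the tissues, as a description. Among the 38 genes with a slope of 0.5 or more in malignant tissue, 19 were higher and 1 lower in malignant US-FNA, with a median log2 fold change of 1.96. Among the 62 flatter genes, 17 were higher and 1 lower, with a median of 0.84. Across the 100 genes the correlation of slope and log2 fold change was r = 0.450 and rho = 0.411, a description across genes that share the same 7 aspirates. Genes with less than 1 CPM in non-malignant tissue had 7 of 10 called higher and a median of 3.72, those with 1 to less than 5 CPM had 10 of 23 and 1.55, and those with 5 CPM or more had 19 of 67 and 0.85. Eligibility required at least 5 CPM in malignant tissue, so the first class was high in tumours by choice, with 10 of 10 called higher there. Eligible genes of the same levels were not set beside these classes, and nothing is read from their order. By place within the list, 16 of places 1 to 50 and 20 of places 51 to 100 were called higher.

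**Figure D4:**
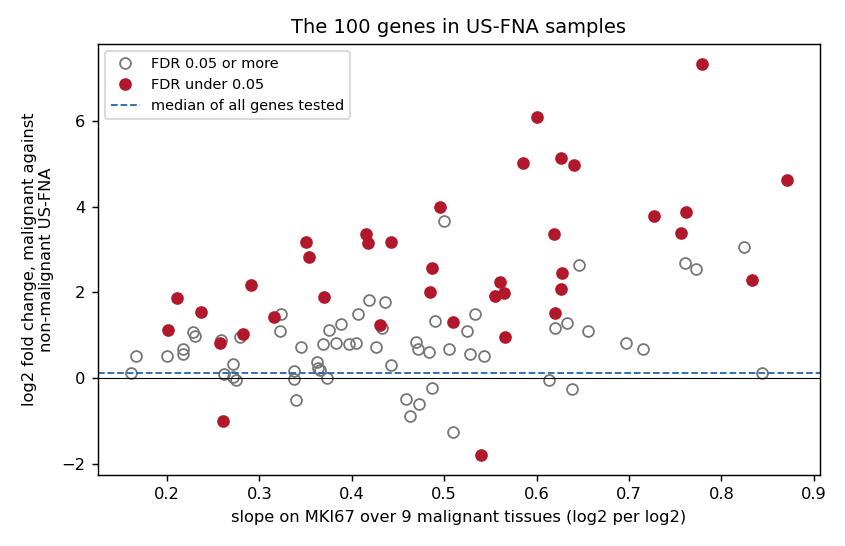
Log2 fold change of each of the 100 genes between malignant (n = 2) and non-malignant US-FNA (n = 5) against its slope on MKI67 over the 9 malignant tissues, with genes called at an adjusted p under 0.05 filled and the median of all genes tested dashed. The 36 genes called higher lie at all slopes, and the 2 called lower at slopes of 0.26 and 0.54.

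The gene with the largest increase among those called was ENSCAFG00000016044, at place 71. It had 399 CPM in US-4 and 156 CPM in US-3, against 0, 0.369, 1.70, 1.89 and 5.93 CPM in US-7, US-32, US-40, US-15 and US-13. The non-malignant aspirates rested on 0 to 14 counts each, so the size of the difference is uncertain. Both malignant aspirates lay far above the others, by 7.34 on the log2 scale (SE 0.89; edgeR, adjusted p = 0.000992). In non-malignant tissue it had 2.05 to 34.0 CPM and in malignant tissue 16.0 to 292 CPM, with overlap between these tissues. The difference between diagnoses was larger in aspirates than in tissue by 4.54 (SE 1.14; diagnosis by sample type interaction, all samples fitted together, edgeR, adjusted p = 0.0453). It was the only one of the 100 genes for which this interaction was called, where 1.07% of all genes were called in this direction and 0.248% in the other.

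ENSCAFG00000009494, at place 64, had the next largest increase and differed between the malignant aspirates themselves. It had 93.3 CPM in US-4 and 10.1 CPM in US-3, against 0.341 to 1.69 CPM in the 5 non-malignant aspirates. The groups did not overlap, with a log2 fold change of 6.08 (SE 0.82; edgeR, adjusted p = 0.00152), which was 3.74 without US-4. In malignant tissue the gene ran from 1.52 to 18.9 CPM, so that US-4 exceeded every tumour tissue, and in non-malignant tissue it did not exceed 1.95 CPM.

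The genes called lower had followed MKI67 between tumours although their level was higher without malignancy. ENSCAFG00000032192, at place 83, had 145 CPM in US-4 and 162 CPM in US-3, against 400, 589, 675, 715 and 748 CPM in US-15, US-13, US-32, US-7 and US-40. It fell by 1.80 on the log2 scale (SE 0.37; edgeR, adjusted p = 0.00822), without overlap. The same gene was higher in non-malignant US-FNA than in non-malignant tissue (25.8 to 203 CPM) by 2.67 (SE 0.35; edgeR, adjusted p = 0.000136), and in malignant tissue it had 9.60 to 66.5 CPM. ENSCAFG00000000454, at place 19, was an abundant gene with 81.7 CPM in US-4 and 80.4 CPM in US-3, against 147, 175, 188, 214 and 222 CPM in US-13, US-32, US-7, US-15 and US-40. Here too both malignant aspirates lay below the others (log2 fold change -0.998, SE 0.28; edgeR, adjusted p = 0.0292), but the call was lost without US-7, US-15 or US-32. Without 1 of these or without US-4, log2 fold changes were between -1.03 and -0.94.

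PCNA, which the rule left out, was higher in malignant than in non-malignant US-FNA by 2.34 (SE 0.40; edgeR, adjusted p = 0.00389). It had 79.2 CPM in US-4 and 167 CPM in US-3, against 12.9 to 35.8 CPM in the non-malignant aspirates. The aspirates differed in more than MKI67. HBB, encoding the beta chain of haemoglobin, had 14548 CPM in US-4 and 21602 CPM in US-3, against 190, 2533, 5080, 5250 and 12758 CPM in US-40, US-32, US-15, US-7 and US-13, and at most 51.5 CPM in any tissue. KLK2 took between 29.6% and 43.8% of the gene counts of non-malignant aspirates and less than 0.001% in the malignant ones. The part of blood and of secretory cells in the results on aspirates was not tested.

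The malignant aspirates also differed from each other. The study scored blood contamination as strong in US-3 and weak in US-4. It measured an RNA integrity number for US-4 but none for US-3, whose RNA profile it judged acceptable. The part of RNA quality and blood in the values below was not tested. The mean log2(CPM+1) of the 100 genes was 5.17 in US-4 and 4.66 in US-3, although MKI67 was lower in US-4. Of the 100 genes, 70 were higher in US-4 than in US-3, as were 58.0% of the eligible genes. For 71 genes both malignant aspirates lay within the range of the malignant tissues, for 13 an aspirate exceeded all tissues, and for 17 an aspirate was below all of them. The counts of 13 and 17 overlap. The same counts were not made over the eligible genes, so nothing is read from them.

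Malignant US-FNA was also compared with non-malignant tissue, which shares the malignant aspirates with the comparison above. These groups differ at once in diagnosis, neutering, collection and RNA extraction, whose parts cannot be told apart. Here 62 of the 100 genes were higher and 1 lower (edgeR, adjusted p under 0.05). The shares were 23.8% and 17.8% of all genes, and 26.3% and 16.2% of the eligible genes. The median log2 fold change of the 100 genes was 1.47, against 0.04 over all genes tested. With the list chosen without PT-8 the count was 33 higher and 5 lower. In total, 35 of the 36 genes called higher against non-malignant US-FNA were also called here. Since both comparisons use US-3 and US-4, this overlap is not a second result, and no share of all genes is given for it.

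Non-malignant US-FNA was compared with non-malignant tissue to set the aspirates beside tissue of the same diagnosis, although dogs, collection and RNA extraction also differed between these groups. Of the 100 genes, 11 were higher and 3 lower (edgeR, adjusted p under 0.05), where 7.34% and 10.6% of all genes and 7.39% and 12.1% of the eligible genes were called in these directions, with a median log2 fold change of 0.33 against 0.02 over all genes tested. Without US-7 the count was 6 higher, and without US-40 it was 7. No share of all genes is given for these fits, so nothing is read from these counts. MKI67 itself differed by 0.35 (SE 0.72; edgeR, adjusted p = 0.769). ENSCAFG00000016044 was lower in the aspirates by 2.82 on the log2 scale (log2 fold change -2.82, SE 0.76; edgeR, adjusted p = 0.0168), where it had 0 to 14 counts each.

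Finally, the relation with MKI67 was examined within non-malignant tissue, where few cells divide and MKI67 ranged from 0 to 16 counts. The values of r of the 100 genes were near those of the eligible genes. Their median r over the 9 non-malignant tissues was 0.238, against 0.213 over the eligible genes, 76% were above 0 against 68.2%, and 21 of the 100 exceeded 0.5 against 21.1% of the eligible genes. At an unadjusted two-sided exact permutation p under 0.05, 5 of the 100 genes had a positive r and 1 a negative one, where 6.67% of the eligible genes had a positive one, and after Benjamini-Hochberg adjustment over the 10946 eligible genes 0 of the 100 and 0 of all remained (lowest adjusted p of the 100, 0.644). In edgeR, 0 of the 100 genes and 0% of all genes tested had a slope on MKI67 at an adjusted p under 0.05, with 5 of the 100 and 1169 of all at an unadjusted p under 0.05, and DESeq2 also called 0 of the 100.

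**Figure D5:**
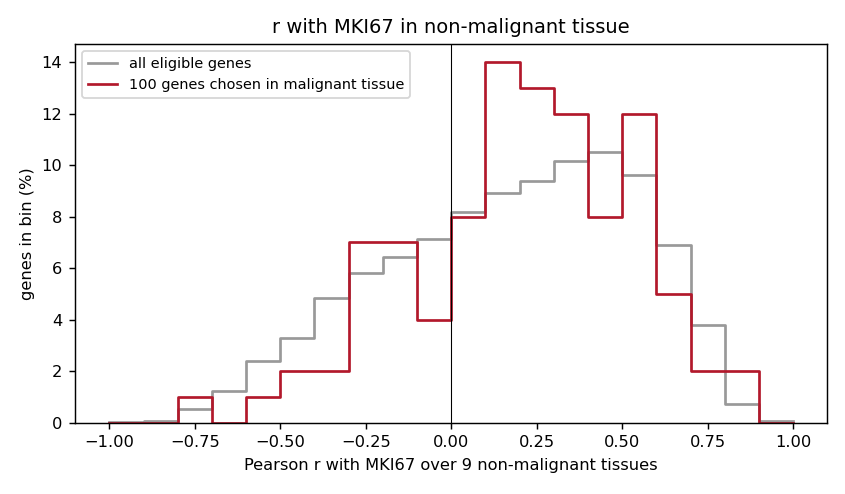
Pearson r with MKI67 over the 9 non-malignant tissues, as the percentage of genes in bins of 0.1, for the 100 genes (red) and all eligible genes (grey). Both distributions centre slightly above 0, with medians of 0.238 and 0.213.

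These tissues set a wide margin on the slopes. The median slope of the 100 genes was 0.08 with a median SE of 0.26, compared with a median slope of 0.45 in malignant tissue, so that a slope of that median size would lie less than 2 SE from 0. The median r of the 100 genes moved with single tissues. It was 0.038 without PT-11 and 0.199 without PT-10, the tissues without a count of MKI67, and 0.372 without PT-12, and that of the eligible genes was 0.035, 0.206 and 0.275.

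Values for single genes were as follows. ENSCAFG00000016044 had an r of -0.129 with MKI67 in non-malignant tissue (two-sided exact permutation p = 0.746, adjusted p = 0.926) and a rho of -0.385 (exact permutation p = 0.303), and r was -0.522 without PT-10 and PT-11. ENSCAFG00000009494, with 0 to 7 counts there, had an r of -0.029 (exact permutation p = 0.942, adjusted p = 0.987) and a rho of -0.134 (exact permutation p = 0.731). Without PT-10 and PT-11 its r was -0.409. ENSCAFG00000032192 had an r of 0.290 (exact permutation p = 0.442, adjusted p = 0.801) and a rho of 0.209 (exact permutation p = 0.587). Without these tissues its r changed sign, to -0.231. ENSCAFG00000000454 had an r of 0.346 (exact permutation p = 0.360, adjusted p = 0.763) and a rho of 0.226 (exact permutation p = 0.557), and r was 0.220 without PT-10 and PT-11. PCNA had an r of 0.221 (exact permutation p = 0.561) and a rho of 0.167 (exact permutation p = 0.666), and r was -0.438 without these tissues.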

How the data were processed

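Per the labels and the study's methods, the authors trimmed reads with Trimmomatic 0.32, mapped them to CanFam3.1 with TopHat2 and deposited raw htseq-count read counts per Ensembl gene and sample, without normalisation. Tallies of reads not assigned to genes were left out of totals. CPM and log2(CPM+1) were computed from these counts in Python 3.11.15 with NumPy 2.4.6 and pandas 2.3.3.

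Groups were taken from the labels and samples treated as independent, so p-values measure the spread between these samples. Genes were filtered with filterByExpr (minimum count 10, minimum total 15), leaving 15296 with all 100 genes among them, normalised by TMM and tested by the quasi-likelihood test of edgeR 4.0.16 (R 4.3.3), each comparison fitted on its own groups, with Benjamini-Hochberg adjustment over all genes tested and a threshold of 0.05. Each SE was obtained as |log2 fold change|/sqrt(F). Scripts were tested on simulated data. Alternatives included DESeq2 1.42.0 and the study's threshold of 0.00001.

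The genes and comparisons were chosen with earlier results of these data known. IDs named are the 2 with the largest and the 2 with the smallest log2 fold change among the 100 genes called between US-FNA groups. The gene lists prepared could not be applied for want of gene names, and no sequences or coordinates are given. The floor of 3 counts covers counting error only.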

Additional observations from a re-analysis of the deposited data

Results flagged for a closer look

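In CPM, the MKI67 level of PT-1, 519 CPM, lay far from the other 8 malignant tissues, the next of which was PT-2 with 210 CPM. On the log2(CPM+1) scale these values were 9.02 and 7.72, and the lowest tissue had 4.18. The gap in CPM exceeded Dixon's 95% limit for 9 samples, as 1 of 18 group values examined in this way, and chance alone gives about 1 in 20. Without PT-1 51 of the 100 genes were chosen again.

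The difference of ENSCAFG00000016044 between diagnoses was larger in aspirates than in tissue, by 4.54 on the log2 scale (SE 1.14; edgeR, adjusted p = 0.0453 for the interaction). The malignant groups had 156 and 399 CPM in US-FNA and 16.0 to 292 CPM in tissue. The non-malignant groups had 0 to 5.93 CPM (0 to 14 counts) in US-FNA and 2.05 to 34.0 CPM in tissue.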

How the results depend on the processing

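With 2 malignant aspirates and few MKI67 counts in non-malignant samples, small changes were not detectable. Of the 100 genes, 53 were chosen again by Spearman's rho, 65 with a minimum median of 20 CPM and 25 to 81 without 1 malignant tissue. The median r in non-malignant tissue was 0.137 by Spearman's rho, 0.113 with TMM library sizes and 0.038 to 0.372 without 1 tissue. Over the eligible genes these values were 0.126, 0.038 and 0.035 to 0.277.

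At the threshold of 0.00001, 0 genes were higher and 0 lower between US-FNA groups, 1 and 0 between malignant US-FNA and non-malignant tissue, 0 and 0 between the non-malignant groups, and 12 and 0 between tissues. Between US-FNA groups, 1 gene was lower without the filter on low counts. Leaving out 1 malignant tissue from the choice of genes (added after seeing the data) gave 17 to 52 genes higher and 1 to 5 lower. Of the eligible genes, 19.5% were higher and 10.3% lower. For malignant US-FNA against non-malignant tissue, leaving out 1 malignant aspirate gave 39 to 52 higher and 0 lower. For the non-malignant groups, leaving out 1 aspirate gave 6 to 12 higher and 1 to 3 lower, DESeq2 5 lower and a fit of all 4 groups 6 higher. Shares of all genes are not given for these alternatives, and nothing is read from the counts. The causes were not tested. Of the 53 medians of log2 values under the alternatives, 0 changed sign. No paired analysis was possible because the labels give no pairing between the groups compared.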
